A study of Caenorhabditis elegans with 20 samples.

Results

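The gene msra-1 (WBGene00018393), which encodes a methionine sulfoxide reductase of Caenorhabditis elegans, was followed through all 20 libraries of the study. It is 1 of the 39341 genes in each of the 2 deposited tables, and it was chosen from earlier results of these same data because its level differed between groups. Its levels and their differences are therefore given as a description with their spread and without a test. Tests are given only for other genes of the same metabolism. The lists of these genes were also chosen with earlier results of these data known, so their calls are not independent support.

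Whole animals labelled L4 were collected as at least 200 staged worms per library, and messenger RNA was measured by a modified CEL-seq2 protocol, which reads the 3′ ends of transcripts. In the first experiment (8 libraries) wild type and Δnhr-114 animals were grown for 48 h on Escherichia coli OP50 on soy peptone plates, with no added methionine or with 25 mM methionine. In the second (12 libraries) the strains were metr-1(ww52);Δnhr-10, Δmetr-1 and wild type. They were fed E. coli HT115 with an empty vector or with a clone for nhr-114 RNAi for 48 h, all with 20 nM vitamin B12. Each of the 10 groups had 2 replicate libraries, and all strains, wild type included, carried the transgene wwIs24[Pacdh-1::GFP;unc-119(+)]. Δnhr-114 was the allele nhr-114(gk849), Δmetr-1 was metr-1(ok521), and metr-1(ww52);Δnhr-10 combined a point mutant from a mutagenesis screen with nhr-10(tm4695). No library of Δnhr-10 alone was analysed here, so the effects of metr-1(ww52) and of Δnhr-10 cannot be told apart. Each mutant genotype was represented by 1 strain, and the study's methods call the replicates of this protocol biological, without saying in the sources used here how they were separated. The p-values measure the spread between these libraries.

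Methionine is easily oxidised to methionine sulfoxide, and methionine sulfoxide reductases turn it back into methionine, both in proteins and as the free amino acid. The enzyme is regenerated by thioredoxin, which is in turn reduced by thioredoxin reductase. The methionine it returns is the substrate of the Met/SAM cycle, in which methionine is activated to S-adenosylmethionine (SAM), the methyl donor of the cell, and homocysteine is remethylated by the vitamin B12-dependent methionine synthase METR-1. NHR-114 is a nuclear hormone receptor, a transcription factor of a family that is large in nematodes.

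In the annotation of assembly WBcel235 msra-1 lies on chromosome II, from 7363220 to 7364040, on the reverse strand. It has 1 annotated transcript with 2 exons, an intron of 133 bases and a coding length of 621 bases for 207 residues. The annotated 5′ untranslated region spans 7 bases and the 3′ untranslated region spans 57 bases, and the authors extended the counted 3′ ends beyond the annotation.

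Values are CPM, the reads of a gene scaled to a common library total without regard to gene length. Library totals ran from 1389117 to 24482380 reads in the first experiment and from 2542155 to 16025927 reads in the second. A count of 3 reads corresponded to 0.123 to 2.16 CPM in the first and 0.187 to 1.18 CPM in the second, so that every msra-1 value stood far above this floor. The targeted gene nhr-114 was at 29.0 and 36.6 CPM in untreated wild type and at 0.445 and 0.703 CPM in untreated Δnhr-114. Under the RNAi label the receptor gene reached 391, 193 and 340 CPM in the replicate 1 libraries of metr-1(ww52);Δnhr-10, Δmetr-1 and wild type, which is above every vector library, and at 3.60, 7.94 and 2.30 CPM in the replicate 2 libraries. The nhr-114 value of all 3 replicate 1 libraries thus goes against the label, and these libraries are named below by their label. Reads of metr-1 were present in Δmetr-1 (372 and 468 CPM with vector), and since 3′ tags need not lie in the deleted part they do not check that label.

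Animals without added methionine on OP50 carried a high level of msra-1 only in the wild type. Untreated wild type had 724 CPM (10006 reads) in replicate 1 and 516 CPM (6119 reads) in replicate 2. With methionine the wild type libraries had 44.8 CPM (538 reads) and 53.3 CPM (74 reads). Both methionine libraries thus lay below both untreated ones, with no overlap. The mean was 620 ± 147 CPM (SD, n = 2) without and 49.02 ± 6.01 CPM (SD, n = 2) with methionine, a 12.7-fold lower mean with the supplement. The difference of the group means of log2(CPM + 1), with a standard error from the spread of msra-1 within the 4 groups of the experiment, was -3.62 ± 0.25.

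Untreated Δnhr-114 animals had 36.1 and 27.6 CPM of msra-1, or 31.8 ± 6.05 CPM (SD, n = 2). This was 19.5-fold below untreated wild type, a log2 difference of -4.23 ± 0.25. With methionine the Δnhr-114 libraries had 37.9 and 45.1 CPM. Both were above both untreated Δnhr-114 libraries, although the nearest pair of libraries was 1.75 CPM apart, and the log2 difference of 0.38 ± 0.25 was 1.30-fold in CPM. In the presence of methionine Δnhr-114 and wild type overlapped, with a log2 difference of -0.23 ± 0.25. The difference between the methionine effects in the genotypes was 4.0 ± 0.35 on the log2 scale.

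In the order of the means, untreated Δnhr-114 was lowest, followed by Δnhr-114 with methionine, wild type with methionine and untreated wild type. The libraries of Δnhr-114 with methionine and wild type with methionine overlapped, whereas the step from wild type with methionine to untreated wild type was 12.7-fold without overlap.

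On HT115 with vitamin B12 the wild type had little msra-1 and both metr-1 mutant strains had much. Wild type with vector had 48.4 and 58.5 CPM, or 53.4 ± 7.10 CPM (SD, n = 2). Δmetr-1 with vector had 1005 CPM (8262 reads) and 1203 CPM (14457 reads), a mean 20.7-fold above wild type and a log2 difference of 4.34 ± 0.32. The strain metr-1(ww52);Δnhr-10 with vector had 1317 CPM (3348 reads) and 768 CPM (12302 reads), a mean 19.5-fold above wild type and a log2 difference of 4.21 ± 0.32. All 4 mutant libraries lay above both wild type libraries, and the 2 mutant strains overlapped each other, with a log2 difference of -0.13 ± 0.32 between them.

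In the libraries labelled nhr-114 RNAi the high level was absent from both mutants. Δmetr-1 labelled nhr-114 RNAi had 47.1 CPM in each of its 2 libraries (522 and 653 reads), a mean 23.4-fold below the vector and a log2 difference of -4.52 ± 0.32. The strain metr-1(ww52);Δnhr-10 labelled nhr-114 RNAi had 57.9 and 41 CPM, a mean 21.1-fold below its vector and a log2 difference of -4.34 ± 0.32. In neither strain did these libraries overlap those with vector. Wild type labelled nhr-114 RNAi had 81.3 and 56.8 CPM against 48.4 and 58.5 CPM with vector, which overlapped, with a log2 difference of 0.35 ± 0.32.

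Without the 3 replicate 1 libraries in which nhr-114 goes against the label, the log2 differences were -4.52 in Δmetr-1, -4.58 in metr-1(ww52);Δnhr-10 and 0.09 in wild type. The msra-1 level was thus low in the mutants both where nhr-114 was at 193 and 391 CPM and where it was at 7.94 and 3.60 CPM. The cause of the high nhr-114 value in the replicate 1 libraries was not tested.

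The difference of the effects of the RNAi label between Δmetr-1 and wild type was -4.86 ± 0.45 on the log2 scale, and that between metr-1(ww52);Δnhr-10 and wild type was -4.69 ± 0.45. Among the libraries labelled nhr-114 RNAi, Δmetr-1 lay -0.52 ± 0.32 and metr-1(ww52);Δnhr-10 lay -0.47 ± 0.32 from wild type, and the mutants differed by 0.05 ± 0.32.

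**Figure D1:**
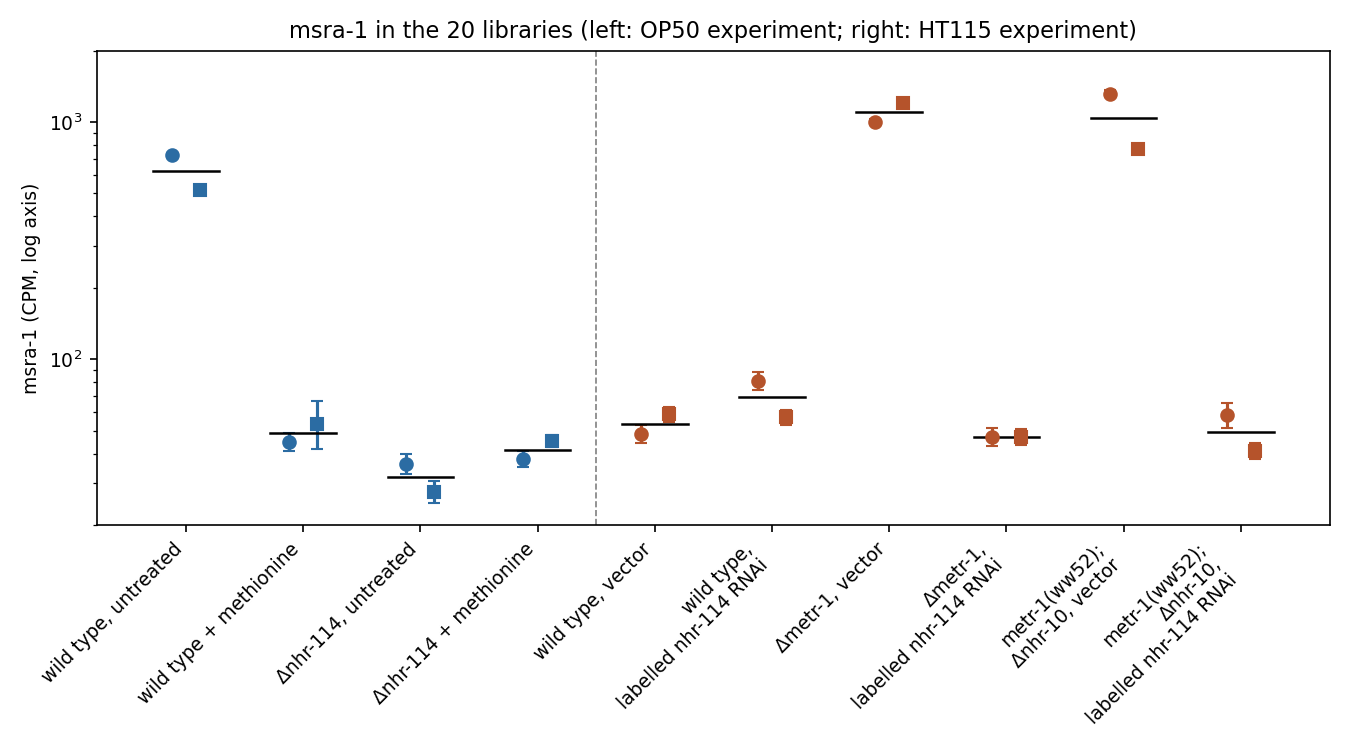
Level of msra-1 in each library (CPM, log axis; circle replicate 1, square replicate 2; bars are exact 95% Poisson intervals for counting error, black lines are group means). The 6 libraries of untreated wild type on OP50 and of the 2 metr-1 mutant strains with vector lie between 516 and 1317 CPM, and the other 14 lie between 27.6 and 81.3 CPM.

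Set side by side across the separately normalized tables, no msra-1 value in the 20 libraries lay between 81.3 and 516 CPM, a gap of 6.35-fold between the highest of 14 low and the lowest of 6 high libraries. Within the first experiment this gap was 9.69-fold and within the second 9.45-fold. Differences were taken only within an experiment, because food, vitamin B12 and normalization all differed between the tables. Replicates of a group differed by 1.00-fold in Δmetr-1 labelled nhr-114 RNAi, the closest pair, and by 1.72-fold in metr-1(ww52);Δnhr-10 with vector, the widest. In 8 of the 10 groups the counting intervals of the replicates did not overlap. If the counts are unique molecules, which is not stated, the replicates of these groups were further apart than counting error alone. The exceptions were wild type with methionine, in which 1 library had 74 reads of msra-1, and Δmetr-1 labelled nhr-114 RNAi.

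In the order of the means of the second experiment, Δmetr-1 labelled nhr-114 RNAi was lowest, followed by metr-1(ww52);Δnhr-10 labelled nhr-114 RNAi, wild type with vector and wild type labelled nhr-114 RNAi. Each of these neighbours overlapped the next. A 15.1-fold step without overlap led to metr-1(ww52);Δnhr-10 with vector, which overlapped Δmetr-1 with vector at the top.

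**Figure D2:**
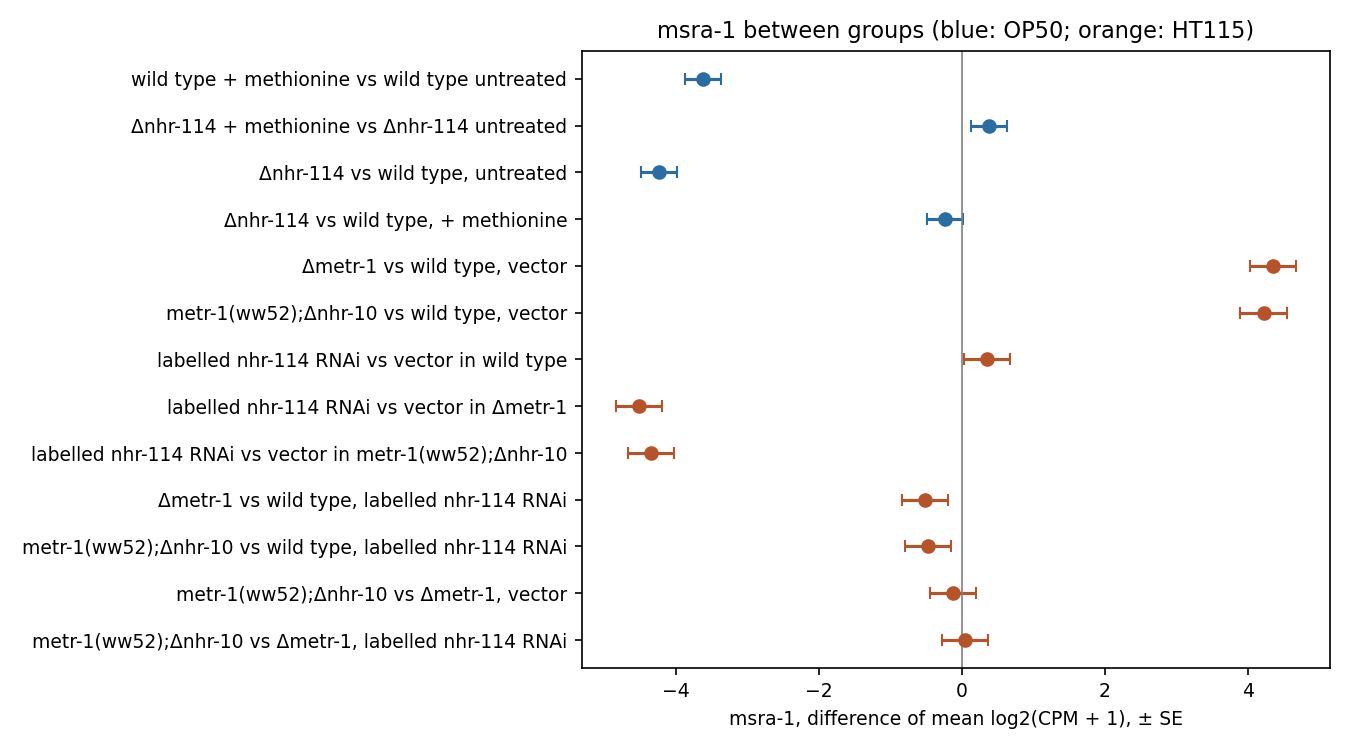
Difference of the group means of log2(CPM + 1) of msra-1 for 13 pairs of groups, with its standard error (blue, first experiment; orange, second). The 6 differences of 3.62 or more in size are those that set untreated wild type or a metr-1 mutant with vector against a low group, and the other 7 lie between -0.52 and 0.38.

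Other genes of methionine sulfoxide reduction were examined as a list beside msra-1. The list held F44E2.6, for which the annotation gives only its sequence name, and genes of the thioredoxin system. Of its 9 genes 7 were measured at 5 CPM or more in at least 2 libraries and were tested. The limma test was fitted across all such genes of a table, and a gene was called at a Benjamini-Hochberg adjusted p below 0.01 with a change above 1.5-fold. None of the 7 was called in any of the 8 comparisons tested, by limma or by edgeR. Of these 56 tests 1 had an unadjusted limma p below 0.05. Neither method called any gene in the first experiment or for the RNAi label in wild type. With vector, limma called 0.113% of all genes for Δmetr-1 and 0.26% for the other mutant strain, and under the label 12.5% and 4.76%. A count of 0 of 7 is near these shares and is no result about the list. Under the label 0 of the 7 had an unadjusted limma p below 0.05 in either mutant, against 4874 and 3535 of all 11543 genes. F44E2.6 stayed between 16.6 and 31.7 CPM in the first experiment and between 18.9 and 26.7 CPM in the second. Its log2 change was 0.07 ± 0.28 (SE) in Δmetr-1 against wild type and 0.01 ± 0.28 under the RNAi label in Δmetr-1.

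The mitochondrial thioredoxin gene trx-2 ranged from 87.1 to 124 CPM in the first experiment and from 87.9 to 123 CPM in the second. The thioredoxin reductase genes varied relatively more. The cytosolic trxr-1 ranged from 28.1 to 42.1 CPM and from 25.8 to 46.4 CPM in the respective experiments, and the mitochondrial trxr-2 from 4.90 to 13.7 CPM and from 2.72 to 8.26 CPM. The thioredoxin-related genes trx-4 and txl-1 had log2 changes between -0.56 and 0.25 over the 8 comparisons. The genes trx-1 and trx-5 stayed at or below 1.57 and 0.730 CPM and were not tested.

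The gene that varied most in this list was trx-3, an intestinal thioredoxin. It had 236 and 203 CPM in wild type with vector against 19 and 66.5 CPM in Δmetr-1 with vector, which limma estimated at -2.58 ± 0.61 (SE) on the log2 scale with an adjusted p of 0.209 and which only DESeq2 called. The 2 Δmetr-1 libraries themselves lay far apart, and in this comparison the trx-3 difference ran in the direction opposite to that of msra-1. In metr-1(ww52);Δnhr-10 trx-3 had 99.1 and 83.6 CPM with vector, also below wild type. Under the RNAi label that strain had 46.8 and 25.7 CPM, a fall without overlap in the direction of msra-1. In Δmetr-1 the labelled libraries had 81.6 and 32.5 CPM of trx-3 and overlapped those with vector. Their mean of 57.1 CPM was above the 42.7 CPM with vector, the direction opposite to that of msra-1.

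**Figure D3:**
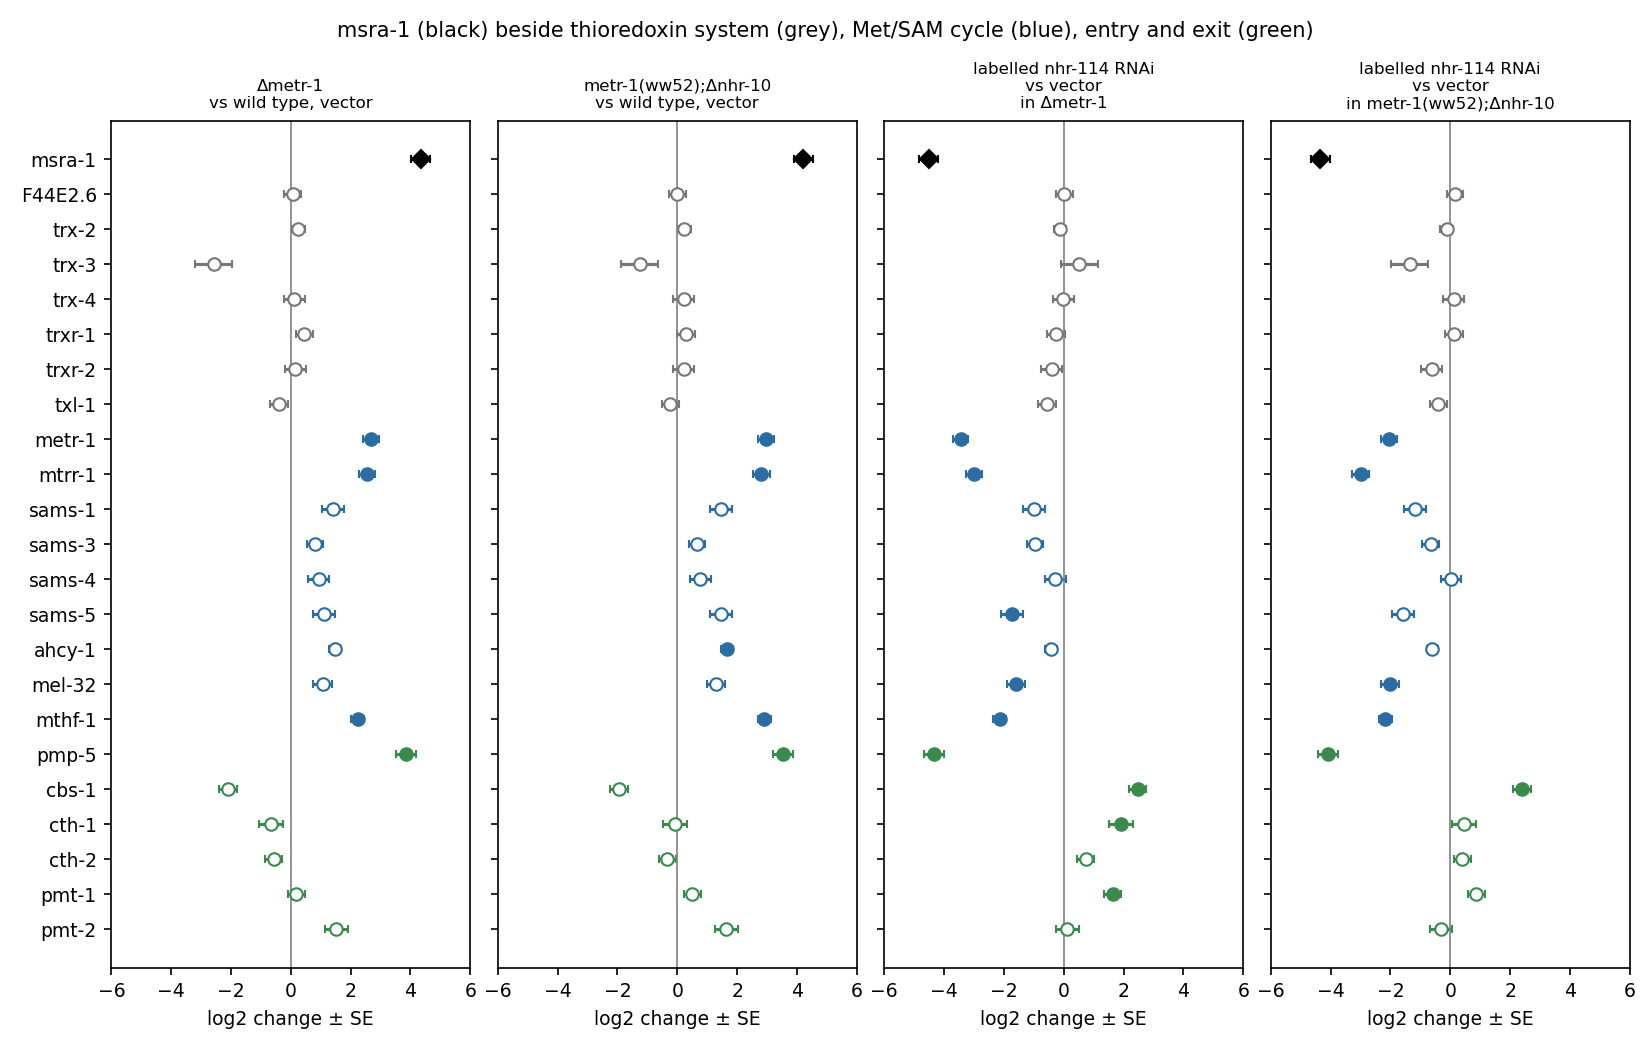
Log2 change with its standard error of msra-1 (black, described without a test) and of the tested genes of methionine sulfoxide reduction and the thioredoxin system (grey), the Met/SAM cycle (blue) and entry to and exit from the cycle (green) in 4 comparisons. Filled circles were called by limma and open circles were not. None of the 7 grey genes was called, where limma called 0.113%, 0.26%, 12.5% and 4.76% of all genes, from left to right. The genes metr-1, mtrr-1, mthf-1 and pmp-5 were called in all 4 comparisons in the direction of msra-1.

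Among the genes around msra-1 in metabolism, 53 genes in 6 lists were examined, with msra-1 left out. In Δmetr-1 against wild type with vector 48 were tested, 4 rose and none fell, where limma called 0.113% of all 11543 genes higher and 0% lower. The 4 were metr-1, the methionine synthase reductase gene mtrr-1, the methylenetetrahydrofolate reductase gene mthf-1 and pmp-5, an ortholog of a human vitamin B12 transporter. Their log2 changes were 2.68, 2.55, 2.23 and 3.85, with limma adjusted p of 0.00186, 0.00313, 0.00186 and 0.00123. The median change over the 9 Met/SAM cycle genes was 1.42, against 0.10 over all genes. The SAM synthase gene sams-1 had a log2 change of 1.42 (SE 0.36) and the S-adenosylhomocysteine hydrolase gene ahcy-1 one of 1.48 (SE 0.20), and neither was called. Leaving out any 1 of the 4 compared libraries left 0 calls. On the compared libraries only 1 gene was called.

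In metr-1(ww52);Δnhr-10 against wild type with vector 5 of 48 rose and none fell, where 0.243% of all genes were called higher and 0.0173% lower. These were metr-1, mtrr-1, mthf-1, ahcy-1 and pmp-5, with log2 changes of 2.96, 2.81, 2.91, 1.66 and 3.54. The methyltransferase gene pmt-2, which acts in phosphatidylcholine synthesis, had a log2 change of 1.64 (SE 0.38) and was not called. The cystathionine beta synthase gene cbs-1, whose product draws homocysteine out of the cycle, was at -1.95 ± 0.29 (SE) on the log2 scale, with an adjusted p of 0.0157 by limma. Its level was 11.4 and 15.3 CPM in the mutant against 45.1 and 64.5 CPM in wild type, so that it was low where msra-1 was high. Without either wild type vector library 1 gene was called, and without replicate 1 of the mutant with vector none was. This comparison and the preceding one share their wild type libraries.

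Under the RNAi label in Δmetr-1 5 of 48 listed genes rose and 11 fell, where 1.52% of all genes were called higher and 11% lower. Without mtl-1, which passed the filter only in mutants under the label, 4 rose. In the Met/SAM cycle 5 of 9 genes fell and none rose, and the log2 changes of metr-1, mtrr-1, mthf-1, the serine hydroxymethyltransferase gene mel-32 and sams-5 were -3.45, -3.0, -2.15, -1.59 and -1.74. The median over the 9 was -1.59, against -0.11 over all genes. Around the cycle pmp-5 fell, with a log2 change of -4.33, while cbs-1, the cystathionine gamma-lyase gene cth-1 and the methyltransferase gene pmt-1 rose by 2.47, 1.91 and 1.64. Of the propionate shunt, the vitamin B12-independent route of propionate breakdown, acdh-1, hphd-1, ech-6 and hach-1 fell, with log2 changes of -5.60, -2.67, -1.99 and -1.12, while alh-8 was at 0.06 ± 0.21 (SE). The receptor gene nhr-68, a regulator of that shunt, fell, with a log2 change of -3.77. Leaving out replicate 1 or 2 of the labelled libraries left 6 and 8 calls. On the compared libraries only, or without all 3 replicate 1 libraries of the label, none was called.

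Under the RNAi label in metr-1(ww52);Δnhr-10 2 of 48 rose and 7 fell, where 1.39% of all genes were called higher and 3.38% lower. The genes metr-1, mtrr-1, mthf-1, mel-32, pmp-5, acdh-1 and nhr-68 fell, with log2 changes of -2.04, -3.0, -2.18, -2.01, -4.08, -4.03 and -3.09, and cbs-1 and sod-4 rose, by 2.40 and 1.41. This comparison shares its vector libraries with the mutant comparison above. The calls were 0 without replicate 1 with vector, 2 without replicate 2 with vector, and 1 and 0 without replicate 1 and 2 of the label. They were 0 on the compared libraries only and 0 without all 3 replicate 1 libraries of the label.

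Other listed genes lay nearer to no difference or varied too much for a call. The SAM synthase genes sams-3 and sams-4 had log2 changes of 0.81 (SE 0.27) and 0.93 (SE 0.34) in Δmetr-1 against wild type with vector against 0.65 and 0.77 for metr-1(ww52);Δnhr-10. Of the genes on the exit route, the cystathionine gamma-lyase gene cth-2 was at -0.57 and -0.34 in the respective mutants, and cbs-2 stayed at or below 9.36 CPM in the first and 3.72 CPM in the second experiment. The shunt genes acdh-1 and hphd-1 had log2 changes of 5.69 and 2.28 in Δmetr-1 (limma adjusted p of 0.0113 and 0.0461) and of 4.74 and 1.15 in metr-1(ww52);Δnhr-10 (0.0163 and 0.284), and were not called. The receptor gene nhr-68 was likewise not called, at 2.45 and 2.59 (limma adjusted p of 0.0208 and 0.0131). For nhr-114 the changes of 2.56 and 2.50 had a standard error of 2.58, which includes the spread between the RNAi-labelled replicates. Among the vector libraries alone, wild type ranged from 3.16 to 8.98 CPM of this receptor gene. Δmetr-1 ranged from 29.4 to 46.3 CPM and the other mutant strain from 33.7 to 37.4 CPM, so neither overlapped wild type. With vector, nhr-114 was thus higher in the strains in which msra-1 was high. Replicate 2 of wild type under the label, at 2.30 CPM, lay little below the lower vector value. The metallothionein gene mtl-2 was at -1.60 ± 1.04 (SE) and the glutathione S-transferase gene gst-4 at -1.09 ± 0.39 (SE) in Δmetr-1.

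Oxidative defence genes were the largest list. Of its 16 genes 14 were tested in the second experiment. None was called in Δmetr-1 or metr-1(ww52);Δnhr-10 with vector by limma or edgeR. Of all 11543 genes, limma called 0.113% and 0.26% in these mutants, and edgeR called 10 and 15 genes. A count of 0 of 14 is near these shares and is no result about the list. In each mutant 4 of the 14 had an unadjusted limma p below 0.05, as had 972 and 1538 of all genes. DESeq2 called 0 and 1 of the 14, and 89 and 135 of all genes. The peroxisomal catalase gene ctl-2 came to 1.68 ± 0.28 (SE) on the log2 scale in metr-1(ww52);Δnhr-10, with an adjusted p of 0.0279 by limma. The genes ctl-1 and ctl-3 had nearly the same values and may share reads. Under the RNAi label the extracellular superoxide dismutase gene sod-4 rose in both mutants, by 1.23 on the log2 scale in Δmetr-1 (102 and 111 CPM with vector, 244 and 254 CPM under the label) and by 1.41 in metr-1(ww52);Δnhr-10. It was thus higher where msra-1 was lower. The metallothionein gene mtl-1 had 0.730 and 0.416 CPM in Δmetr-1 with vector and 6.77 and 24.5 CPM under the label. It reached 5 CPM in only 4 libraries of the second experiment, all of mutants under the label, and so passed the filter only through the groups where it is high, and its call is no support. The thioredoxin-dependent peroxiredoxin genes prdx-2 and prdx-3 were called in none of the 8 comparisons.

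In the first experiment none of the 47 listed genes tested was called by limma or edgeR in any of 3 comparisons, and neither was any of the 10948 genes (0%). For methionine in wild type 15 of the 47 had an unadjusted limma p below 0.05, as had 126 of all genes. DESeq2 called 4 of the 47, of which 1 was higher and 3 were lower, and 17 of all genes. For methionine in Δnhr-114 7 had such a p, as had 477 of all genes, and DESeq2 called 0 of the 47 and 43 of all genes. For untreated Δnhr-114 against wild type 16 had such a p, as had 496 of all genes. DESeq2 called 6 of the 47, of which 1 was higher and 5 were lower, and 85 of all genes. In each of these comparisons fewer genes had such a p than would with no difference at all, so the limma calls of 0 say little. The level of pmp-5 differed by -2.60 ± 0.34 (SE) on the log2 scale with methionine in wild type (limma adjusted p = 0.278) and by -3.83 ± 0.34 in Δnhr-114 (limma adjusted p = 0.0338). Over the 9 genes of the Met/SAM cycle the median log2 change was -1.05 with methionine in wild type and -0.76 in untreated Δnhr-114, against -0.02 and 0.10 over all genes. These comparisons share untreated wild type. Outside the cycle, acdh-1 was at -1.68 ± 0.30 (SE) and ech-6 at -0.82 ± 0.26 (SE) with methionine in wild type, and they were at -2.69 and -1.20 in untreated Δnhr-114. The receptor gene nhr-68 was at -1.23 and -1.55 in these comparisons, and gst-4 at 0.78 and 0.85. With methionine in Δnhr-114 acdh-1 was at 0.63, nhr-68 at 0.58 and mtl-2 at 1.72 ± 0.50 (SE). For the RNAi label in wild type limma called none of the 48 listed genes and 0% of all genes, and edgeR and DESeq2 also called 0. An unadjusted limma p below 0.05 was seen for 0 of the 48 and for 141 of all 11543 genes.

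The pattern of msra-1 over libraries was then compared with that of all 10812 genes tested in both experiments, as Pearson's r of log2(CPM + 1) over the 8 and over the 12 libraries. These values are descriptions: msra-1 falls into separate high and low clusters, libraries share their group, and the genes share their libraries. The 8 genes ranked most alike by the lower of their 2 r were mtrr-1, pmp-5, farl-11, acdh-1, lys-5, clec-47, fog-3 and mthf-1. For mtrr-1 r was 0.96 and 0.99, for pmp-5 0.96 and 0.99, for farl-11, an ortholog of the human STRIP proteins, 0.95 and 0.99, and for mthf-1, the last of the 8, 0.94 and 0.95. In all, 14 genes had both r at 0.9 or above and 1 had both at -0.9 or below.

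Among the genes most alike, pmp-5 had 251 to 328 CPM in untreated wild type and 41 to 52.6 CPM with methionine. It had 429 to 450 CPM in Δmetr-1 with vector and 17.6 to 24.7 CPM under the RNAi label. The C-type lectin gene clec-47 had 121 to 135 CPM in untreated wild type, 2.50 to 2.88 CPM with methionine, 168 to 241 CPM in Δmetr-1 with vector and 5.15 to 12.1 CPM under the label. The lysozyme gene lys-5 had 8.54 to 8.78 CPM in untreated wild type and was listed at 0 in both untreated Δnhr-114 libraries, and its highest value anywhere was 16.5 CPM. It reached 5 CPM only in untreated wild type and in the mutants with vector, where msra-1 is high. It passed the filter only through those groups, so its place among the genes most alike is partly set by the filter. Of the genes most alike, acdh-1 differed from msra-1 in the low groups. It had 426 to 464 CPM in wild type with methionine on OP50, against 15.4 to 19.5 CPM in wild type with vector and vitamin B12, while msra-1 was at 44.8 to 53.3 and 48.4 to 58.5 CPM, levels that stand in separately normalized tables.

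The 4 most opposite genes were cbs-1, C32H11.4, F46C5.1 and lbp-5, which encodes a lipid-binding protein. For cbs-1, the single gene with both r at -0.9 or below, r was -0.92 and -0.98. It had 13.3 and 13.4 CPM in untreated wild type and 39.6 to 88.4 CPM with methionine. It had 11.7 and 12 CPM in Δmetr-1 with vector and 57.7 to 84.7 CPM under the RNAi label.

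**Figure D4:**
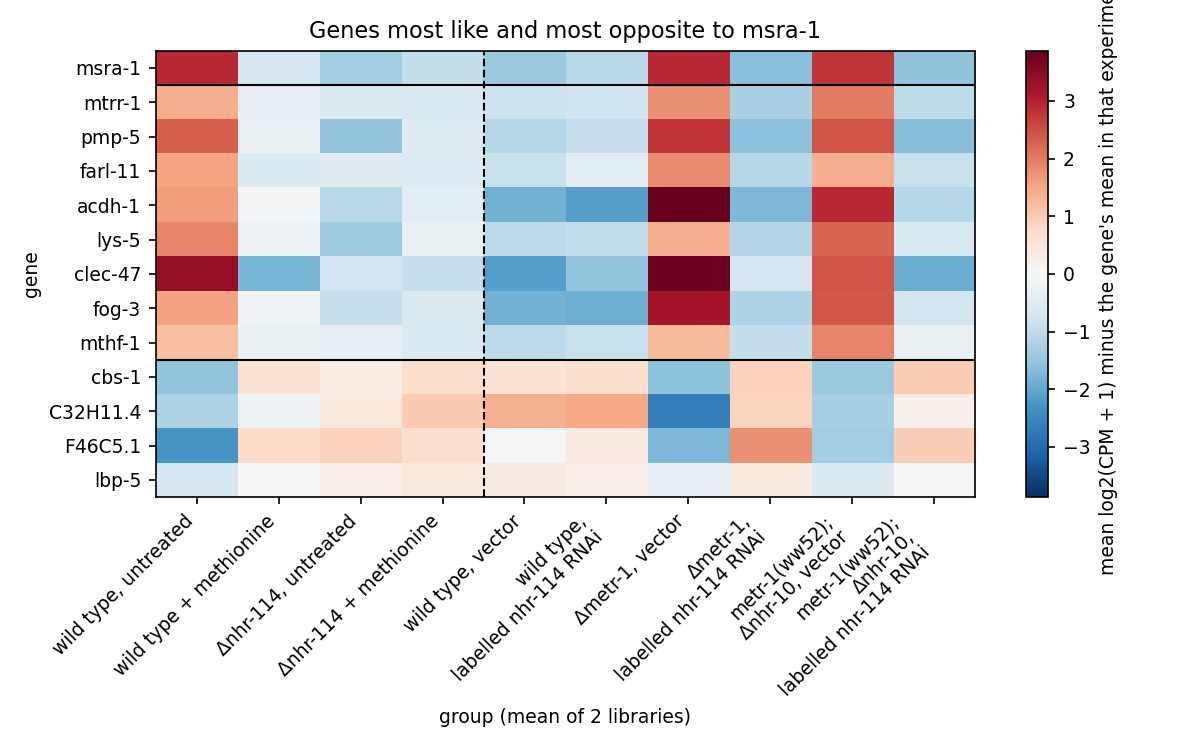
Mean log2(CPM + 1) of each group minus the mean over that experiment's groups, for msra-1 (top row), the 8 genes most like it and the 4 most opposite (below the second line). Red marks groups above and blue groups below the gene's own mean. The 8 alike are above their mean in untreated wild type and in both mutants with vector, as msra-1 is, and the 4 opposite genes are below theirs.

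Neighbours of msra-1 on the chromosome stayed at low levels throughout. The gene insc-1 overlaps its 3′ end by 41 bases on the opposite strand and stayed between 1.17 and 3.60 CPM in all 20 libraries. The gene F43E2.6 lies 2414 bases away on the same strand and stayed between 1.16 and 6.93 CPM. Neither reached 5 CPM in 2 libraries, so r with msra-1 was not taken, and a shared pattern could hardly be seen at these counts. Both genes stayed below the lowest msra-1 value of 27.6 CPM, and whether counting used the strand is not given in the sources used here. Around the genes most alike a few neighbours did share the pattern of msra-1, which was seen after the values were known. Most did not, such as rpl-33 beside farl-11, with r of -0.23 and -0.26, and uri-1 beside acdh-1, with r of -0.14 and 0.33. The gene mmaa-1, an ortholog of the human cobalamin chaperone gene MMAA, lies beside farl-11 on the same strand, and r with msra-1 was 0.87 and 0.97. It had 133 ± 19.7 CPM (SD, n = 2) in untreated wild type, 41.2 and 48.2 CPM with methionine, 175 and 152 CPM in Δmetr-1 with vector and 41.1 and 34.8 CPM under the RNAi label. The lysozyme genes lys-4 and lys-6 beside lys-5 had r of 0.82 and 0.93 and of 0.92 and 0.94.

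Whole animals were measured, so that fewer cells of a type and less RNA per cell cannot be told apart. All 9 intestinal marker genes were detected in both libraries of every group, with a summed level of 4501 to 9119 CPM in the first experiment and 5290 to 8892 CPM in the second. This sum was lower without overlap in untreated Δnhr-114 (4501 to 5053 CPM) than in untreated wild type (5732 to 9119 CPM), and in metr-1(ww52);Δnhr-10 under the RNAi label (5290 to 5775 CPM) than with vector (7736 to 7797 CPM). In Δmetr-1 the label and the vector overlapped. The summed neuron list (6 genes) was higher without overlap under the label in both mutants, at 884 to 958 CPM against 491 to 546 CPM in Δmetr-1 and at 981 to 1016 CPM against 578 to 626 CPM in metr-1(ww52);Δnhr-10. Summed markers varied widely, often within a group, for oocytes and eggshell (13 genes, 368 to 5759 and 479 to 5910 CPM) and vitellogenin (6 genes, 26.3 to 3278 and 64.0 to 5518 CPM). The cuticle and molting sum (12 genes) was 1059 to 7819 CPM within untreated Δnhr-114 and 1305 to 10329 CPM within Δmetr-1 with vector. Under the label it was lower without overlap in metr-1(ww52);Δnhr-10 (1922 to 6866 against 7981 to 9104 CPM). In wild type it was higher without overlap (6690 to 10215.5 against 2890 to 6063 CPM). The study reports that Met/SAM cycle mutants with Δnhr-10 developed much more slowly on nhr-114 RNAi, whereas their parental strain did not. Whether the libraries differed in developmental stage was not tested. In the mutants an effect of the label and such a delay therefore cannot be told apart here.

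A pair of marker lists moved with msra-1, in which 1 gene each made up most of the difference. The summed sperm list was highest in untreated wild type (760 and 1072 CPM) and in the mutants with vector (607 and 685 CPM, 263 and 590 CPM), and fog-3, a regulator of sperm fate, made up most of it. In Δmetr-1 with vector fog-3 had 547 to 594 CPM against 13.5 to 19.2 CPM in wild type, while the other 9 genes together had 60.8 to 91.6 CPM against 109 to 127 CPM. Under the RNAi label these 9 were lower as well, without overlap, at 19.4 to 22.3 CPM in Δmetr-1 and at 15.5 to 24.7 CPM against 55.5 to 70.4 CPM with vector in metr-1(ww52);Δnhr-10. The body wall muscle list moved through the myosin heavy chain gene unc-54, at 8690 to 10985 CPM in Δmetr-1 with vector against 842 to 1002 CPM in wild type. The other 5 muscle genes summed to 2741 to 2928 CPM against 2418 to 2974 CPM. In wild type with methionine on OP50 fog-3 had 232 to 280 CPM and unc-54 4264 to 5061 CPM. Both thus stood above their levels in wild type with vector, as acdh-1 did and msra-1 did not, across separately normalized tables. Whether all reads counted for fog-3 and unc-54 came from these genes themselves, and not from the transgene that all strains carried, was not tested. The part of these marker lists in the msra-1 result was not tested.

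**Figure D5:**
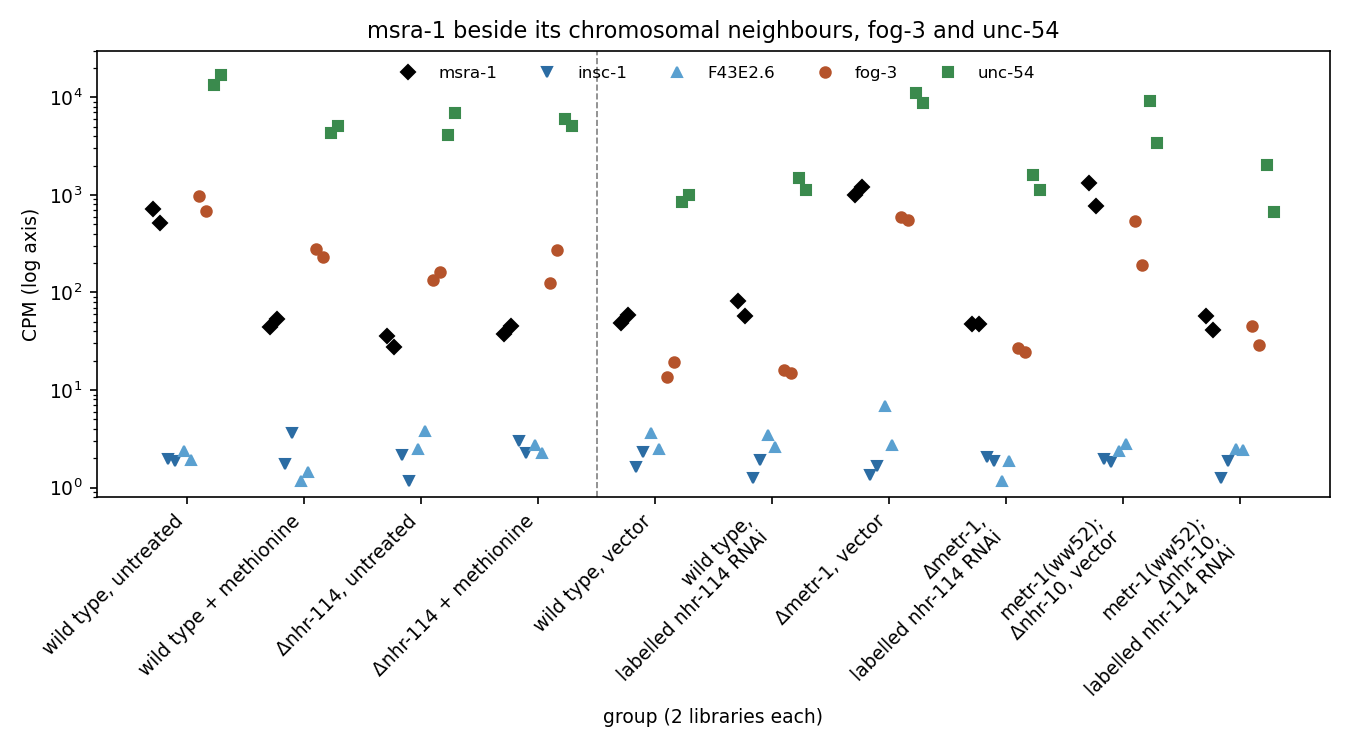
Level in each library (CPM, log axis) of msra-1, of its chromosomal neighbours insc-1 and F43E2.6, and of fog-3 and unc-54, single genes of the sperm and muscle lists. The neighbours stay between 1.16 and 6.93 CPM throughout, while fog-3 and unc-54 are high in the groups in which msra-1 is high.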

How the data were processed

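The authors prepared modified CEL-seq2 libraries, trimmed reads with Trimmomatic 0.32, aligned them with STAR and counted 3′ ends with ESAT on a WormBase gene set without pseudogenes. The deposited values, named TPM, are CPM: each is a whole multiple of 1 step per library (100% of values, within 0.01 read), from which whole reads were recovered. The design had assumed TPM, and its test on the log scale was kept. Whether reads or unique molecules were scaled is not stated.

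Groups came from sample titles, and 0 columns were unmapped. For msra-1, group means of log2(CPM + 1) were compared, with a standard error from its spread within groups. For other genes limma 3.58.1 (trend, robust) was fitted to all libraries of a table, for genes at 5 CPM or more in 2 libraries, with Benjamini-Hochberg adjustment over all of them and calls at adjusted p below 0.01 and a change above 1.5-fold. edgeR 4.0.16 and DESeq2 1.42.0 on the recovered reads, other pseudocounts, filters and scalings, a replicate block and leaving out libraries were alternatives. The fit was tested on simulated data. Counting intervals (95%, Poisson) and the floor of 3 reads cover counting error only.

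Named were msra-1, all genes of the first 3 lists (methionine sulfoxide reduction and thioredoxin, Met/SAM cycle, entry and exit), called genes of the other lists (up to 4 of the largest change each, otherwise 2), genes within 5 kb, and the 8 most like and 4 most opposite genes. The gene, the lists and the markers were chosen with earlier results of these data known.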

Additional observations from a re-analysis of the deposited data

Results flagged for a closer look

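The libraries of the first experiment lay in opposite order with methionine in the genotypes, but an opposite movement of msra-1 is not shown. Both wild type libraries with methionine (44.8 and 53.3 CPM) were below both untreated ones (724 and 516 CPM), whereas both Δnhr-114 libraries with methionine (37.9 and 45.1 CPM) were above both untreated ones (36.1 and 27.6 CPM). The difference between the effects was 4.0 on the log2 scale and was not tested, since msra-1 was chosen from these data. The size of the effect in Δnhr-114 (0.38 ± 0.25) is near the spread between replicates, and its nearest libraries were 1.75 CPM apart.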

How the results depend on the processing

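The msra-1 differences were recomputed under 191 alternatives, of which 181 moved the value by less than the spread between replicates. For many of these the outcome was fixed in advance, so the count is no measure of robustness. With 2 libraries a group, leaving 1 out of a pair of groups cannot exceed this spread. The replicate block leaves the value unchanged. In 7 of the 191 the value changed its sign. These 7 concern the small differences between the mutants, -0.13 with vector (range -0.52 to 0.26) and 0.05 under the RNAi label (range -0.20 to 0.29), whose direction is not resolved. The 9 differences above 3 in size kept their direction in all 113 of their alternatives, at 3.38 to 5.12 in size. In Δmetr-1 the difference under the RNAi label was -4.37 with median-of-ratios scaling, -4.22 with TMM scaling, -4.26 in edgeR and -4.35 in DESeq2. There TMM moved the median of all genes from -0.11 to 0.17. Its difference from the effect in wild type was -4.56 with TMM scaling and -4.60 in edgeR, and -5.12 to -4.61 when 1 library was left out. That of metr-1(ww52);Δnhr-10 was -5.08 to -4.30 when 1 was left out.

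Counts of listed genes called depended on the test. DESeq2 called 4 for methionine in wild type, 6 for untreated Δnhr-114, 10 for Δmetr-1 and 9 for metr-1(ww52);Δnhr-10. With no filter 2 were called for untreated Δnhr-114, and edgeR called 2 for Δmetr-1. On the compared libraries only, 1 was called for Δmetr-1, 11 for metr-1(ww52);Δnhr-10 and 0 under the RNAi label in either mutant. With 1 library left out, calls ran from 0 to 5 for Δmetr-1, 0 to 6 for metr-1(ww52);Δnhr-10, 6 to 14 under the RNAi label in Δmetr-1 and 0 to 11 in metr-1(ww52);Δnhr-10. Without the 3 replicate 1 libraries of the label, an alternative added after seeing the data, 0 were called in either mutant. Fewer libraries enter these fits, and the cause was otherwise not tested.

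Over all genes limma, edgeR and DESeq2 called 13, 10 and 89 for Δmetr-1, 30, 15 and 135 for metr-1(ww52);Δnhr-10, and under the RNAi label 1448, 1560 and 2424 for the former mutant and 550, 389 and 1290 for the latter. They called 0, 0 and 17 for methionine in wild type, 0, 0 and 43 for methionine in Δnhr-114, 0, 0 and 85 for untreated Δnhr-114, and 0, 0 and 0 for the RNAi label in wild type, where 126, 477, 496 and 141 genes had an unadjusted limma p below 0.05. With 2 libraries a group and 74 reads of msra-1 in the thinnest, the small differences among low groups are not resolved.

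Replicate numbers were not treated as pairing the samples, since not every pair of groups correlated above 0.1: deviations of libraries that share a number correlated at -0.66 to 0.31 over 6 pairs of groups in the first experiment and at -0.47 to 0.68 over 15 in the second, above 0.1 in 2 and in 6 of them. The number does mark a shared feature under the RNAi label, where all 3 replicate 1 libraries had high nhr-114 (193 to 391 CPM) and the pair of mutant groups correlated at 0.68. With the replicate block the msra-1 differences are unchanged by construction (-3.62 for methionine in wild type, 4.34 for Δmetr-1), and 6 listed genes were called for Δmetr-1, 5 for metr-1(ww52);Δnhr-10, 16 and 9 under the RNAi label in the mutants and 0 elsewhere.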
